A study of Mus musculus with 8 samples.

Results

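The genes described here answer to low oxygen or carry out glycolysis. They comprise 37 genes named for these roles, each read from the probe set whose platform annotation gives exactly that 1 symbol, and from the probe set with the highest mean where a gene had several. Of the 37, 35 were measured, among 19938 genes in all, and Gpi1 and Eno1 are not analysed here because no probe set carried their symbol alone. The data are 8 Affymetrix MoGene ST arrays of mouse RNA, in 4 groups of 2. MBA-15 is a stromal line of pre-osteoblastic character, and DA3 is a line from a mammary adenocarcinoma. In the groups MBA-15 co-culture and DA3 co-culture the carcinoma cells had been seeded onto the stromal layer, and the suspension was then parted by magnetic particles against CD326 (EpCAM) into a fraction that carries this epithelial antigen, labelled DA3, and one that does not, labelled MBA-15. In the groups MBA-15 alone and DA3 alone each line was grown by itself as control, per the labels. The sample descriptions name 24 h for all 8 arrays, the growth protocol names 24 or 48 h, both lines were kept in the same serum-containing medium, and the labels name no low-oxygen treatment. The design text names the interaction of the lines as its subject. All levels below are log2 values after RMA, which corrects for background, normalizes across arrays and summarises each probe set, and are always given for array 1 and then array 2 of a group, and a difference of 1 log2 unit is 2-fold.

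Hypoxia-inducible factors are transcription factors made of an oxygen-sensitive alpha subunit, such as the products of Hif1a and Epas1, and a constant partner. With oxygen present, prolyl hydroxylases of the Egln family mark the alpha subunit for destruction. When oxygen falls the subunit persists, and the factor raises genes for glucose uptake, glycolysis, lactate export, vessel growth and collagen modification, and Egln3 itself as feedback. Because the main control acts on the protein, the messenger level of Hif1a does not show the activity of the factor. Tumour cells often run glycolysis at a high rate with oxygen present, and bone-forming cells also depend on glucose.

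The label MBA-15 alone was not borne out by Epcam, the gene of the antigen used in the separation. Epcam was at 8.45 and 9.25 on the arrays so labelled, 5.58 and 5.19 in co-cultured MBA-15, 9.57 and 9.46 in DA3 alone, and 9.30 and 9.38 in co-cultured DA3. The descriptions of the 4 arrays labelled as either line alone carry the word mix beside the sign of the magnetic fraction. The pair in question is written as MBA-15 labelled alone throughout. The summed linear level of 15 epithelial markers, all measured, was 12.28 to 12.63 as a log2 value in MBA-15 labelled alone, 9.06 to 9.20 in co-cultured MBA-15, 13.26 to 13.40 in DA3 alone and 12.87 to 13.36 in co-cultured DA3. For the 14 of 15 stromal markers measured the sum was 13.26 to 13.95 in co-cultured MBA-15, 13.41 to 13.44 in MBA-15 labelled alone, 10.91 to 11.21 in DA3 alone and 11.32 to 12.10 in co-cultured DA3. The stromal sum was thus higher in co-cultured DA3 than in DA3 alone, where 11 of the 14 markers were higher and 3 lower. Of these 14, 0 passed (limma), against 0.0401% of all genes. An unadjusted p under 0.05 was found for 8 of the 14 and for 2973 of 19938 genes. The median difference was 0.63 over the 14 and 0.04 over all genes. Vim was at 7.68 and 7.57 in DA3 alone and 9.32 and 9.23 in co-cultured DA3, and Fstl1 at 4.96 and 4.88 against 6.45 and 6.29. Sparc, the highest marker in DA3 alone (10.18 and 10.59), was at 10.7 and 10.07 in co-cultured DA3. Twist1 had means of 6.6 in DA3 alone and 6.42 in co-cultured MBA-15. Thy1, Lum and Postn lay below the lowest array median on all 8 arrays. Of 5 measured leukocyte markers 4 lay below the lowest array median of 4.479 on all 8 arrays, Ptprc among them (highest 4.35), and the other, Cd68, was above it on all 8, from 4.62 to 6.80, with 6.80 and 6.45 in co-cultured DA3. The summed leukocyte level was 6.5 to 6.95 in co-cultured MBA-15, 6.82 to 7.21 in MBA-15 labelled alone, 6.92 to 7.38 in DA3 alone and 7.34 to 7.48 in co-cultured DA3. All 5 endothelial markers lay below the lowest array median on all 8 arrays. The array medians lay between 4.479 and 4.642. In bulk RNA, fewer cells of a type and less RNA per cell cannot be told apart. The labels do not tell whether a group's arrays are of different cultures, and all 8 carry the same culture date, so p-values cover only how these samples vary, a spread that may be technical.

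Promoters of 7 members are shown for the presence of the letters that hypoxia-inducible factors are known to bind: 5 members that were higher in MBA-15 (Adm, Egln3, P4ha1, Slc16a3 and Bnip3), 1 that was lower (Car12) and 1 glycolytic gene that did not pass in any comparison (Ldha). Each is the 250 bases just upstream of the gene's annotated start, outside the transcript, from RefSeq on the mouse build GRCm38.p6. They are given 5′ to 3′ on the strand of the gene, with every match to ACGTG or GCGTG on either strand in capitals (on the other strand these read CACGT and CACGC). The windows are chr7:110627407-110627656 (plus strand) for Adm, chr12:54203875-54204124 (minus) for Egln3, chr10:59323046-59323295 (plus) for P4ha1, chr11:120948817-120949066 (plus) for Slc16a3, chr7:138909507-138909756 (minus) for Bnip3, chr9:66713436-66713685 (plus) for Car12 and chr7:46845554-46845803 (plus) for Ldha, the first of its annotated starts.
Adm: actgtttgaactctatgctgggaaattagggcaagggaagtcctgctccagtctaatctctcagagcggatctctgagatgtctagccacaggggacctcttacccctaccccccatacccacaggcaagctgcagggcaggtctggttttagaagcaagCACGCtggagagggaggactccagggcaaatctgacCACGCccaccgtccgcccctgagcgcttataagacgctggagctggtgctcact
Egln3: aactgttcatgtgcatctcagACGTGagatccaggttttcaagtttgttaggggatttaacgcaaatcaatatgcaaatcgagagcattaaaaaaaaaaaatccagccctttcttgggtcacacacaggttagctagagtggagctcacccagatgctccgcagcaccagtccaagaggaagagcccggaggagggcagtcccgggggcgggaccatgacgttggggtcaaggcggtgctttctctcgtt
P4ha1: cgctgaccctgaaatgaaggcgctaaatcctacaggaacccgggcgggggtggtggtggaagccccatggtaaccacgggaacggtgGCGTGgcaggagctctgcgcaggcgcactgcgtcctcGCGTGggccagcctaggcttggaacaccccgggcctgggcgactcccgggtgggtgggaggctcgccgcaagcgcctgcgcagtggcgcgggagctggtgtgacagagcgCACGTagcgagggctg
Slc16a3: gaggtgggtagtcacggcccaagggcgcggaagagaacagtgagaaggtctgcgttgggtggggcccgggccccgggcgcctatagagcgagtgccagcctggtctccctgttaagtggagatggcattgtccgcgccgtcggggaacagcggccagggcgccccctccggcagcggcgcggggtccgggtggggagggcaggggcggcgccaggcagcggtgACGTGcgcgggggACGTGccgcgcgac
Bnip3: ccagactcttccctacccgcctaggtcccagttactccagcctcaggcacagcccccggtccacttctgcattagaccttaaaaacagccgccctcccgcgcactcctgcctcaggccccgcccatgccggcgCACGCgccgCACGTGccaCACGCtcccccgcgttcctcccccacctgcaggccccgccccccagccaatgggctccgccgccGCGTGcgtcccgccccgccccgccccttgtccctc
Car12: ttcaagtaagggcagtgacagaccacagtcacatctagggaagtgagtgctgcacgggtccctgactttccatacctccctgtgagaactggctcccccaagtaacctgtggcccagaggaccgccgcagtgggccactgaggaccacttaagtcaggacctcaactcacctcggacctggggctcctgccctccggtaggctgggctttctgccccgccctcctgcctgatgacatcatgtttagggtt
Ldha: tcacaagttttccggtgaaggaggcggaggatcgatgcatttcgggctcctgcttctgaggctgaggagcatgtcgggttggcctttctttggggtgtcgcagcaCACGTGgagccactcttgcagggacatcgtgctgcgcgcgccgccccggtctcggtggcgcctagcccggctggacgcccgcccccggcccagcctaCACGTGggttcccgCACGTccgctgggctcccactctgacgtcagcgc

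Matches began 90 and 54 bases before the start in Adm, 229 in Egln3, 163, 126 and 16 in P4ha1, and 27 and 14 in Slc16a3. In Bnip3 the matches began at 117, 108, 107, 99 and 35 bases before the start, and in Ldha at 145, 144, 48, 47 and 34. Where 2 of them lie 1 base apart they are the 2 strands of the palindrome CACGTG, which is also the E-box bound by factors of the Myc family. The Car12 window holds 0 matches, which says only that these letters are not in it. Pfkfb3, not shown, was also lower in the MBA-15 fraction, and its 2 windows held 1 and 3 matches. Of the 35 measured members 30 had a promoter in the RefSeq table. Of these, 27 (90%) held a match in at least 1 of their windows, against 41.5% of all 27025 genes there. By window the shares were 76.2% of 42 and 38.6% of 32851. The members were named for answering to low oxygen or for glycolysis, so their higher share is no test. The windows of members were also richer in G and C, with a median of 61.6% against 52.4% over all windows. A match is a description of the sequence and not a bound site. The same letters stood before genes that were higher in MBA-15, such as Adm and Bnip3, and before Ldha, whose level ran from 10.36 to 11.15 over the 8 arrays.

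**Figure D1:**
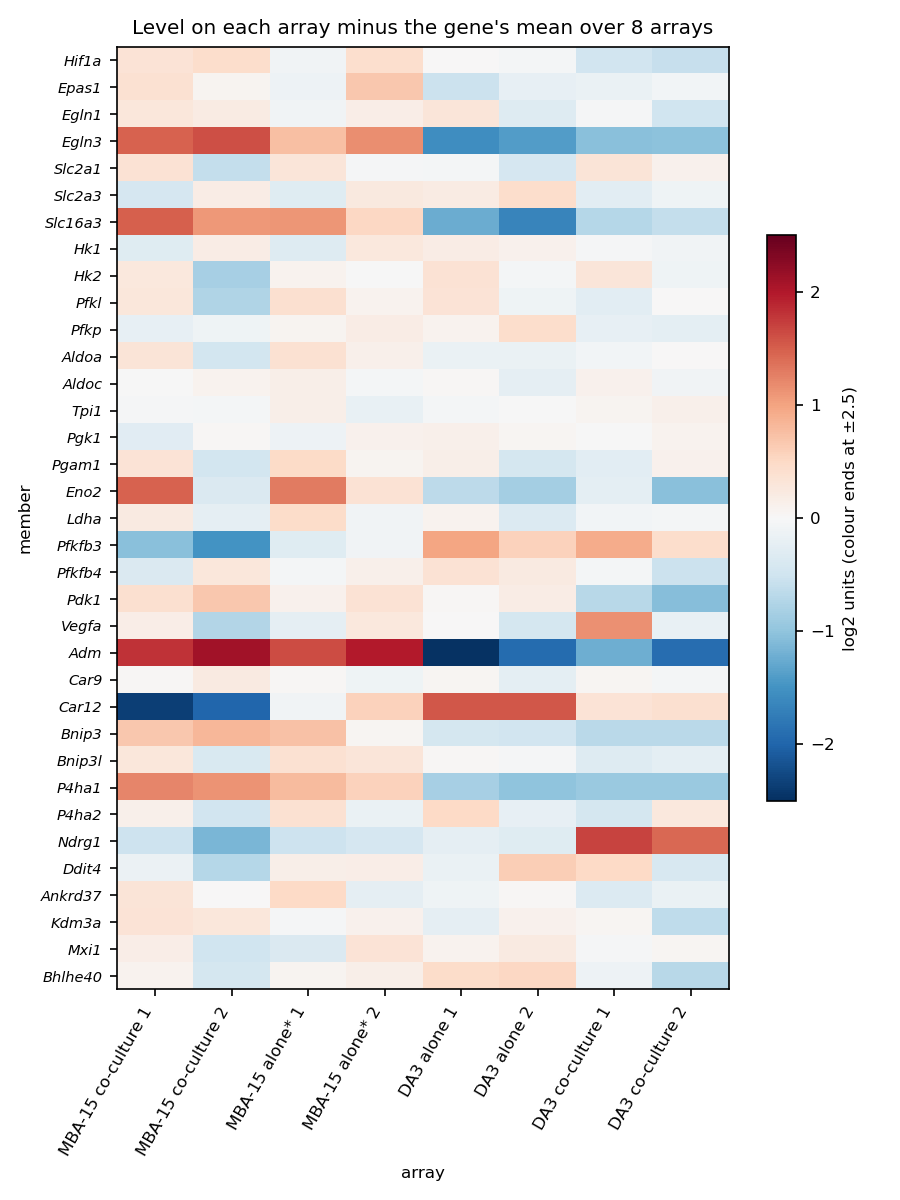
Each row is 1 of the 35 measured members, each column 1 of the 8 arrays, and the colour is the log2 level minus that gene's mean over the 8 arrays (colours saturate at the ends of the scale). The asterisk marks the label that Epcam went against. Adm, Egln3, P4ha1 and Slc16a3 are high on all 4 MBA-15 arrays, Ndrg1 stands out on the 2 co-cultured DA3 arrays, and most glycolytic enzymes have paler colours.

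More members differed between the 2 fractions of the co-culture than in any other comparison made here; this comparison asks how the lines differ when grown together. Of 35 members, 7 were higher in the MBA-15 fraction and 3 were lower, 10 in all (28.6%), against 12.8% of all genes in either direction, 8.28% higher and 4.48% lower (limma with Benjamini-Hochberg adjustment over 19938 genes, adjusted p under 0.05). Among the 9969 genes above the median level, where 31 members lie, the shares were 32.3% of members and 22.6% of genes. The higher ones were Adm, Egln3, P4ha1, Slc16a3, Bnip3, Pdk1 and Hif1a, and the lower ones Car12, Ndrg1 and Pfkfb3. The median difference was 0.06 over members, -0.07 over all genes and 0.12 over the genes above the median level. In a fit without both MBA-15 arrays labelled alone, chosen after the data were seen, 10 members passed as well.

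Among the oxygen sensors, Hif1a was at 9.06 and 9.16 in co-cultured MBA-15, 8.64 and 9.15 in MBA-15 labelled alone, 8.73 and 8.67 in DA3 alone, and 8.25 and 8.16 in co-cultured DA3. The co-cultured DA3 arrays were the lowest, and the 2 co-culture fractions did not overlap. The difference between them was 0.91 ± 0.18 (SE, limma adjusted p = 0.0236). It missed the threshold when any 1 of the co-cultured MBA-15, co-cultured DA3 or DA3 alone arrays was left out, with a difference between 0.86 and 0.95 and an adjusted p between 0.0577 and 0.0978, and when assay number was fitted as a block (0.95, adjusted p = 0.0785). Epas1, the gene of the alpha subunit of the second factor, ran from 3.80 to 5.02 over the 8 arrays, with 4.72 and 4.42 in co-cultured MBA-15, 4.21 and 5.02 in MBA-15 labelled alone, 3.80 and 4.14 in DA3 alone, and 4.18 and 4.27 in co-cultured DA3. These values lie around the array medians.

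Egln3, the oxygen-sensing hydroxylase that is itself induced by the factors, was at 6.53 and 6.67 in co-cultured MBA-15 and 5.80 and 6.22 in MBA-15 labelled alone, but at 3.51 and 3.67 in DA3 alone, and 4.02 and 4.04 in co-cultured DA3. Every MBA-15 array was above every DA3 array. The fractions of the co-culture differed by 2.57 ± 0.17 (SE, limma adjusted p = 0.000541), a 5.95-fold difference, and by 2.65 within assay 3, the only assay number that holds both fractions. The DA3 values lie below the lowest array median, near the low end of the scale, where differences are compressed. Egln1, the main hydroxylase of most cells, was at 7.56 and 7.49 in co-cultured MBA-15, 7.18 and 7.44 in MBA-15 labelled alone, 7.58 and 6.95 in DA3 alone, and 7.24 and 6.78 in co-cultured DA3, and its fractions differed by 0.51 ± 0.25 (SE, limma adjusted p = 0.243). The interval of that difference ran from -0.09 to 1.12.

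Secreted signals divided in the same contrast. Adm encodes adrenomedullin, a peptide that widens vessels and acts on bone cells. Its level was 7.92 and 8.21 in co-cultured MBA-15, 7.75 and 8.10 in MBA-15 labelled alone, 3.65 and 4.20 in DA3 alone, and 4.90 and 4.22 in co-cultured DA3. The 4 MBA-15 arrays lay more than 2 log2 units above the 4 DA3 arrays, of which 3 were below the lowest array median. The fractions differed by 3.50 ± 0.29 (SE, limma adjusted p = 0.00102), an 11.3-fold difference, and by 3.31 within assay 3. Vegfa, the main vessel growth factor, was at 7.33 and 6.43 in co-cultured MBA-15, 6.94 and 7.42 in MBA-15 labelled alone, 7.16 and 6.71 in DA3 alone, and 8.30 and 6.98 in co-cultured DA3. Its groups overlapped and its fractions differed by -0.76 ± 0.49 (SE, limma adjusted p = 0.364), with an interval from -1.93 to 0.41, and array 1 of co-cultured DA3 stood 1.32 above array 2.

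Collagen prolyl hydroxylase genes, whose products prepare collagen for its triple helix, behaved unlike each other. P4ha1 was at 9.62 and 9.52 in co-cultured MBA-15 and 9.20 and 8.97 in MBA-15 labelled alone, against 7.57 and 7.39 in DA3 alone, and 7.47 and 7.47 in co-cultured DA3. All MBA-15 arrays exceeded all DA3 arrays, and the fractions differed by 2.10 ± 0.14 (SE, limma adjusted p = 0.000549), a 4.28-fold difference. P4ha2 was at 8.04 and 7.44 in co-cultured MBA-15, 8.30 and 7.74 in MBA-15 labelled alone, 8.41 and 7.71 in DA3 alone, and 7.47 and 8.17 in co-cultured DA3. Its arrays overlapped between the fractions, which differed by -0.08 ± 0.37 (SE, limma adjusted p = 0.917) with an interval from -0.96 to 0.81.

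Slc16a3 encodes the exporter of lactate used by strongly glycolytic cells. Its level was 7.55 and 7.15 in co-cultured MBA-15, 7.17 and 6.58 in MBA-15 labelled alone, 4.82 and 4.42 in DA3 alone, and 5.35 and 5.46 in co-cultured DA3. The groups of the 2 lines did not overlap, and the fractions differed by 1.95 ± 0.25 (SE, limma adjusted p = 0.00488), with 1.80 within assay 3. Slc2a1, the glucose transporter of most dividing cells, was at 10.23 and 9.27 in co-cultured MBA-15, 10.16 and 9.83 in MBA-15 labelled alone, 9.81 and 9.44 in DA3 alone, and 10.19 and 9.96 in co-cultured DA3. The fractions overlapped and differed by -0.32 ± 0.32 (SE, limma adjusted p = 0.562). The third transporter, Slc2a3, stayed between 3.94 and 4.81.

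Of the regulators that set the rate of glycolysis or the fate of pyruvate, Pdk1 was higher and Pfkfb3 lower in the MBA-15 fraction. Pdk1 encodes a kinase that shuts the entry of pyruvate into the citric acid cycle, and was at 7.85 and 8.12 in co-cultured MBA-15, 7.56 and 7.82 in MBA-15 labelled alone, 7.47 and 7.64 in DA3 alone, and 6.75 and 6.39 in co-cultured DA3. Its fractions differed by 1.42 ± 0.18 (SE, limma adjusted p = 0.00496), and the co-cultured DA3 arrays were the lowest of the 8. Pfkfb3 makes the activator of phosphofructokinase, and was at 4.97 and 4.51 in co-cultured MBA-15, 5.71 and 5.93 in MBA-15 labelled alone, 7.0 and 6.58 in DA3 alone, and 6.93 and 6.45 in co-cultured DA3. The fractions differed by -1.95 ± 0.25 (SE, limma adjusted p = 0.00479), and by -2.42 within assay 3. Pfkfb4, a relative with the same pair of activities, stayed between 5.02 and 5.90.

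Of the 11 measured glycolytic enzymes 0 passed between the fractions (limma), where 12.8% of all genes did. At that share a count of 0 among 11 does not set them apart. Their differences ran from -0.39 for Hk2 to 1.19 for Eno2 with a median of 0.00. The widest 95% interval bounds among them were -1.25 and 2.68, so the data leave room for differences of that size in single enzymes. Hk1, the hexokinase of most tissues, was at 9.02 and 9.50 in co-cultured MBA-15, 8.99 and 9.58 in MBA-15 labelled alone, 9.51 and 9.43 in DA3 alone, and 9.28 and 9.23 in co-cultured DA3. Hk2, the inducible hexokinase, was at 8.13 and 7.04, 7.96 and 7.86, 8.24 and 7.83, and 8.17 and 7.77 in the same order. In both genes the 2 co-culture fractions overlapped.

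Phosphofructokinase subunits came next in the pathway. Pfkl, the liver-type subunit, was at 8.96 and 7.93 in co-cultured MBA-15, 9.07 and 8.76 in MBA-15 labelled alone, 9.01 and 8.57 in DA3 alone, and 8.41 and 8.69 in co-cultured DA3, with 1.04 between the 2 co-cultured MBA-15 arrays. Pfkp, the platelet-type subunit, was at 7.90 and 8.0, 8.18 and 8.29, 8.19 and 8.54, and 7.91 and 7.87 in the same order, and its values were lower on all 4 co-culture arrays than on the 4 arrays labelled alone. The aldolase gene Aldoa was at 11.59 and 10.80 in co-cultured MBA-15, 11.64 and 11.38 in MBA-15 labelled alone, 11.10 and 11.09 in DA3 alone, and 11.20 and 11.27 in co-cultured DA3, and its co-cultured MBA-15 pair spanned the values of both DA3 groups. Aldoc, the aldolase of brain, was at 3.56 and 3.65, 3.72 and 3.52, 3.60 and 3.35, and 3.67 and 3.47 and thus below the lowest array median throughout.

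The lower steps of glycolysis ended with enolase and lactate dehydrogenase. Eno2, an enolase best known from neurons, was at 7.46 and 5.64 in co-cultured MBA-15, 7.30 and 6.36 in MBA-15 labelled alone, 5.34 and 5.15 in DA3 alone, and 5.76 and 4.95 in co-cultured DA3. Array 2 of co-cultured MBA-15 lay within the co-cultured DA3 range, and the fractions differed by 1.19 ± 0.62 (SE, limma adjusted p = 0.269), but by -0.12 within assay 3. Ldha, which makes lactate from pyruvate, was at 10.92 and 10.46, 11.15 and 10.61, 10.78 and 10.36, and 10.62 and 10.65 in the same order of groups. Its fractions differed by 0.05 ± 0.25 (SE, limma adjusted p = 0.914), with an interval from -0.55 to 0.65. Tpi1, Pgk1 and Pgam1 ran over the 8 arrays from 9.82 to 10.15, 10.84 to 11.25 and 9.64 to 10.56. The 3 probe sets of Pgk1 differed by -0.16, -0.26 and -0.26 between the fractions and those of Pgam1 by 0.03, 0.05 and -0.22. Several glycolytic genes have close processed copies in the mouse genome that their probes may also read, so their values are less certain.

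Carbonic anhydrases of the cell surface, which handle the acid of glycolysis, included the member most strongly higher in DA3. Car12 was at 7.88 and 7.87 in DA3 alone, and 6.66 and 6.71 in co-cultured DA3, 6.23 and 6.89 in MBA-15 labelled alone and 3.97 and 4.34 in co-cultured MBA-15. The fractions differed by -2.53 ± 0.23 (SE, limma adjusted p = 0.00148), a 5.79-fold difference, and the co-cultured MBA-15 arrays lie below the lowest array median. Car9, the anhydrase most used as a marker of hypoxia in tumours, was at 3.44 and 3.64 in co-cultured MBA-15, 3.44 and 3.30 in MBA-15 labelled alone, 3.46 and 3.17 in DA3 alone, and 3.46 and 3.35 in co-cultured DA3. All 8 values lie below the lowest array median.

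Among the receptors for the removal of mitochondria, Bnip3 was at 9.93 and 10.10 in co-cultured MBA-15 and 9.99 and 9.32 in MBA-15 labelled alone, against 8.82 and 8.78 in DA3 alone, and 8.59 and 8.59 in co-cultured DA3. The fractions differed by 1.43 ± 0.22 (SE, limma adjusted p = 0.00898), its other probe set gave 1.56, and with assay number fitted as a block the difference was 1.34 (adjusted p = 0.0612), past the threshold no longer. Bnip3l, its relative, stayed between 9.15 and 9.90. Of the stress and transcription genes, Ddit4, an inhibitor of growth signalling by mTOR, was at 5.98 and 5.41 in co-cultured MBA-15, 6.27 and 6.29 in MBA-15 labelled alone, 5.96 and 6.73 in DA3 alone, and 6.62 and 5.72 in co-cultured DA3, and the co-culture fractions overlapped. Bhlhe40, a repressor of transcription, was at 6.94 and 6.42, 6.93 and 7.0, 7.32 and 7.38, and 6.73 and 6.17 in the same order. Ankrd37 ran from 4.67 to 5.50, the histone demethylase gene Kdm3a from 6.89 to 7.86, and Mxi1, which encodes an opponent of Myc, from 5.51 to 6.35.

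**Figure D2:**
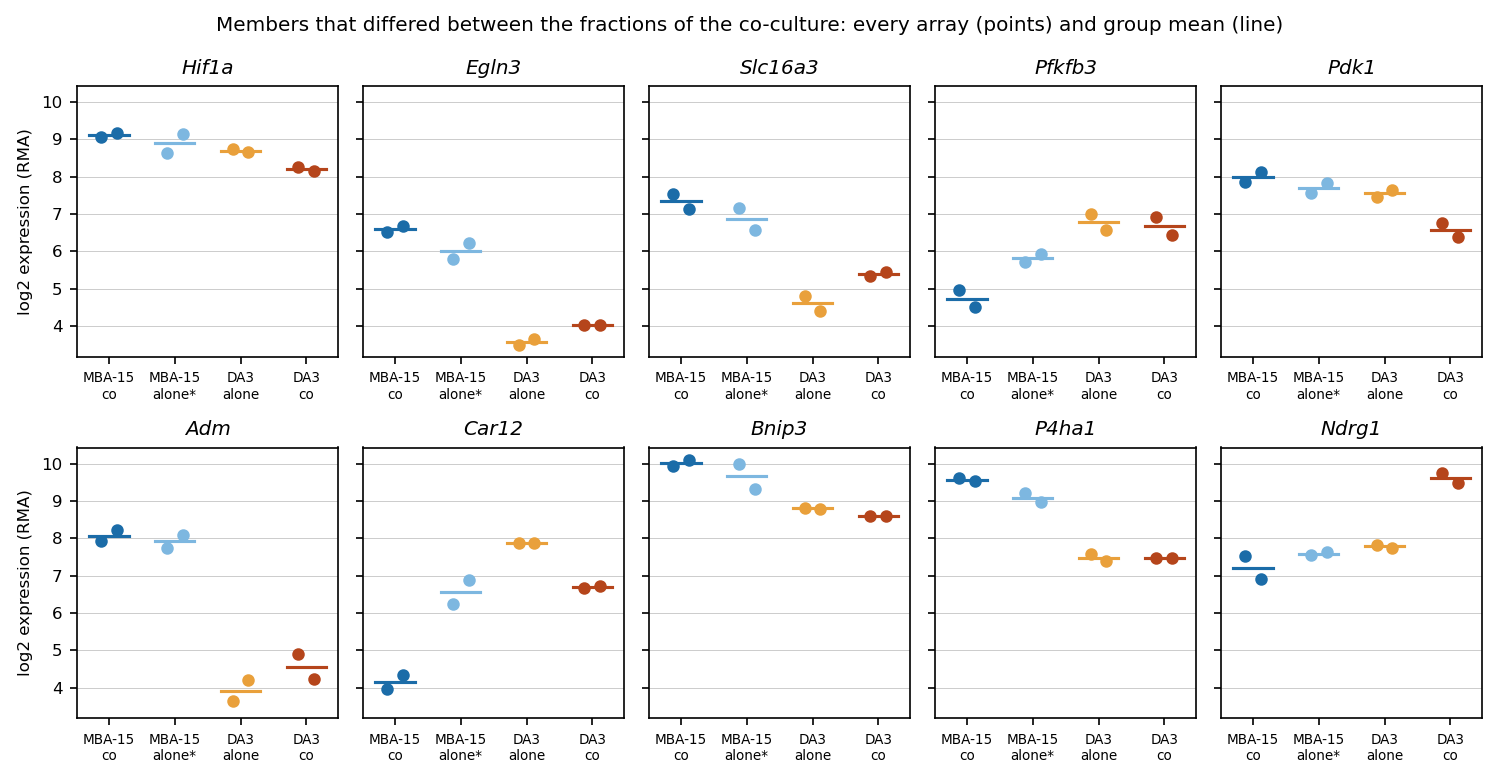
Points are the 2 arrays of each group and lines the group means, on the log2 scale, for the 10 members that differed between the fractions of the co-culture (MBA-15 co against DA3 co). The asterisk marks the label that Epcam went against. Adm and Egln3 are at 5.80 or more on all MBA-15 arrays and at 4.90 or less on all DA3 arrays, while Ndrg1 reaches 9.49 and 9.74 only on the co-cultured DA3 arrays.

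Ndrg1, a gene raised by hypoxia and by differentiation, was the member with the largest difference between co-cultured DA3 and DA3 alone, the comparison that asks what stromal contact changes in the carcinoma line. It stood at 9.74 and 9.49 in co-cultured DA3 and 7.82 and 7.74 in DA3 alone, while it was 7.53 and 6.90 in co-cultured MBA-15 and 7.54 and 7.63 in MBA-15 labelled alone. Both co-cultured DA3 arrays were above all 6 others by over 1 log2 unit. The difference in DA3 was 1.83 ± 0.22 (SE, limma adjusted p = 0.0769), 3.56-fold, which missed the threshold, and it was 2.00 within assay 3. With only the 9969 genes above the median level it passed (adjusted p = 0.0244). The summed stromal markers were higher on the co-cultured DA3 arrays than in DA3 alone, and the part of stromal RNA in the Ndrg1 difference was not tested. Ndrg1 was lower on both co-cultured MBA-15 arrays than on any DA3 array, with a difference of -2.40 ± 0.22 (SE, limma adjusted p = 0.00139) against co-cultured DA3. The MBA-15 difference with co-culture minus the DA3 difference was -2.21 ± 0.31 (SE, limma adjusted p = 0.127) over all genes and passed with only those above the median level (adjusted p = 0.048).

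In DA3, 0 of 35 members passed in limma, against 0.0401% of all genes in either direction, 0.01% higher and 0.0301% lower. An unadjusted p under 0.05 was found for 8 of 35 members and for 2973 of 19938 genes. The median member difference was -0.10 (14 above and 21 below 0), with 0.04 over all genes (11054 above and 8884 below 0). Over only the genes above the median level, where 31 members lie, the median was -0.24. After Ndrg1, the largest differences were -1.19 ± 0.23 (SE, limma adjusted p = 0.158) for Car12, -0.99 ± 0.18 (SE, limma adjusted p = 0.146) for Pdk1, -0.90 ± 0.24 (SE, limma adjusted p = 0.215) for Bhlhe40 and 0.78 ± 0.25 (SE, limma adjusted p = 0.265) for Slc16a3. For these 4 the values within assay 3, which reuse arrays of the same comparison, were -1.20, -0.90, -0.65 and 0.93. Slc16a3 and Adm, which were higher in MBA-15 than in DA3 alone, had values of 0.78 and 0.64 here, while Egln3 and P4ha1, which were also higher in MBA-15, had 0.44 and -0.01, beside the higher sum of stromal markers on the co-cultured DA3 arrays, whose part in these values was not tested. Glycolytic enzymes lay between -0.47 for Pfkp and 0.14 for Aldoa.

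**Figure D3:**
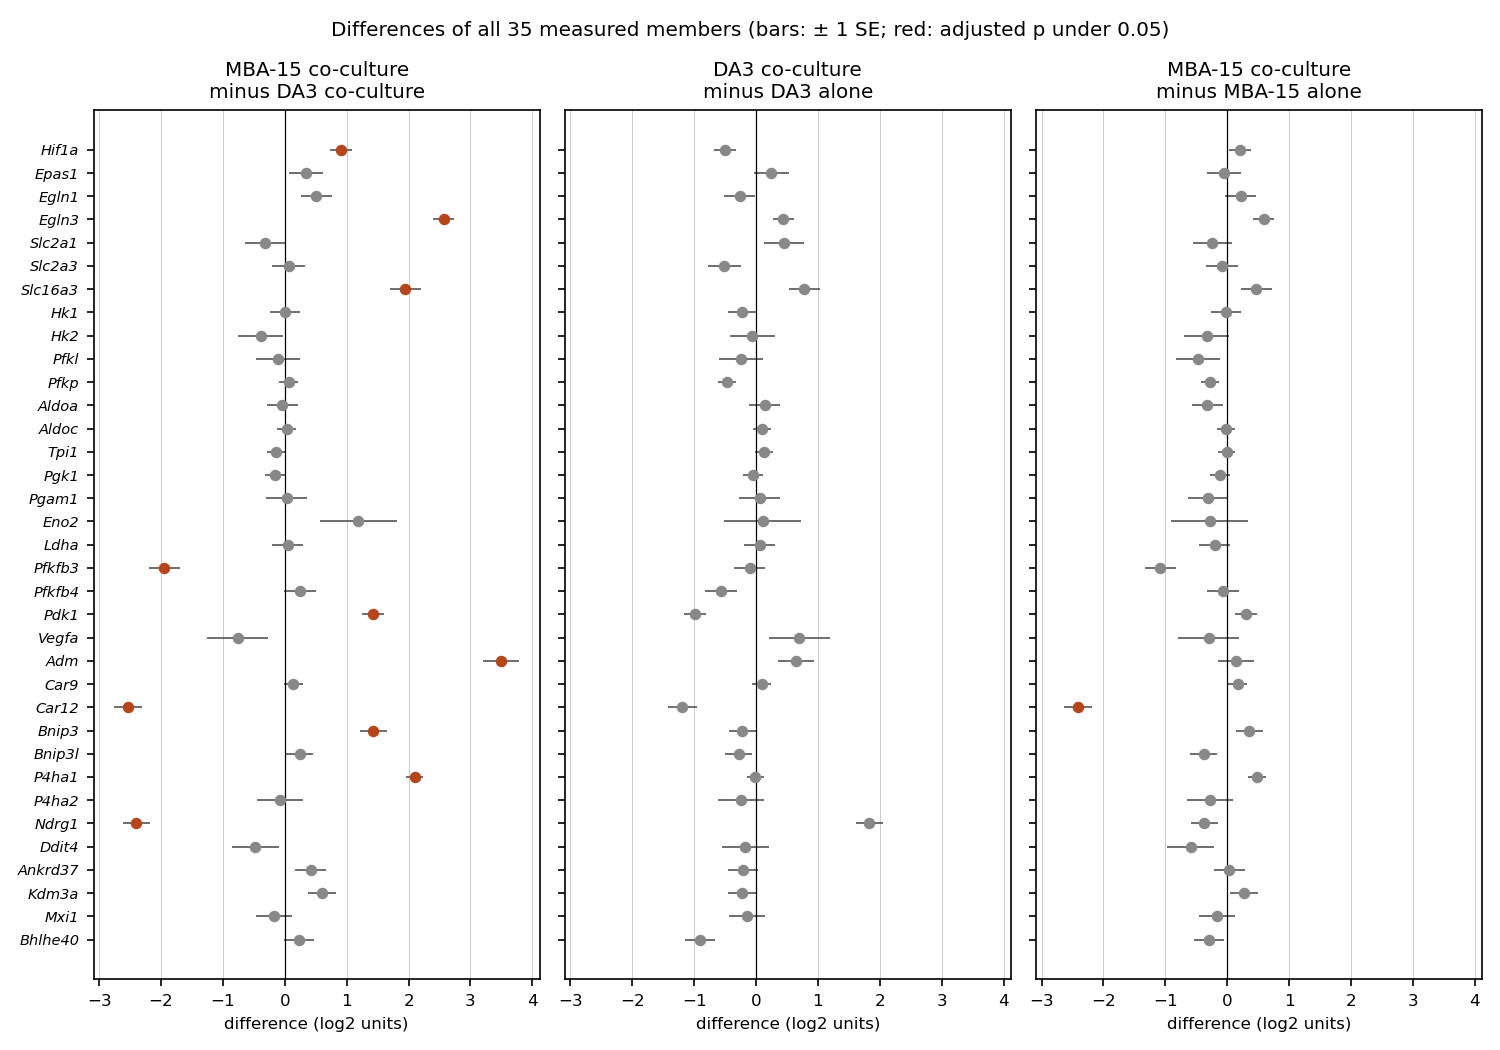
Each row is a measured member, points are the limma differences in log2 units with bars of 1 standard error, and red marks an adjusted p under 0.05. From left to right the panels hold 10, 0 and 1 members past the threshold, and Ndrg1 (1.83) is the point farthest from 0 in the middle panel.

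Stromal cells taken from co-culture were set against MBA-15 labelled alone, the comparison for effects of carcinoma contact. Car12 alone of 35 members passed (2.86%), against 0.848% of all genes in either direction, 0.0752% higher and 0.772% lower, and it fell by 2.41 ± 0.23 log2 units (SE, limma adjusted p = 0.00926). Among genes above the median level the shares were 3.23% of members and 2.66% of genes. The Car12 difference was -2.56 within assay 3 and -2.26 within assay 4. Without co-cultured MBA-15 array 1 or 2 it was -2.23 or -2.59 and missed the threshold (adjusted p = 0.0504 and 0.0735), as it did with only the 4 arrays compared (0.0828). In the same comparison all 15 epithelial markers were lower, and 13 of them passed. On a linear scale with co-cultured MBA-15 at its lower end and DA3 alone at its upper end, Car12 stood at 26.4% and 46.6% in MBA-15 labelled alone. The 15 markers stood at a median of 36.5% (24.6 to 56.8%) and 58.5% (46.5 to 81.9%), so that Car12 lay inside their range on both arrays, near its lower end. The part of carcinoma RNA in the Car12 difference was not tested.

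The other members did not pass in MBA-15, a comparison that shares the co-cultured MBA-15 arrays with the one between the fractions. The median difference over all 35 was -0.12, against 0.04 over all genes and -0.09 over genes above the median level. The next largest were -1.08 ± 0.25 (SE, limma adjusted p = 0.164) for Pfkfb3, 0.59 ± 0.17 (SE, limma adjusted p = 0.267) for Egln3, -0.59 ± 0.38 (SE, limma adjusted p = 0.711) for Ddit4 and 0.48 ± 0.14 (SE, limma adjusted p = 0.268) for P4ha1. In all 4 the mean of MBA-15 labelled alone lay between the means of co-cultured MBA-15 and DA3 alone. These 4 were picked by their size in this comparison, and the share over all members or genes was not counted. It did not lie between for Slc2a1 (9.99, against 9.75 in co-cultured MBA-15 and 9.63 in DA3 alone) or Aldoa (11.51, against 11.19 and 11.09). All 11 glycolytic enzymes had values below 0, from -0.47 for Pfkl to -0.01 for Tpi1, with a median of -0.28. Over all genes 8286 of 19938 were below 0. Most of the enzymes lie above the median level, where the median over genes was -0.09 and most genes were thus also below 0. None of the 11 passed (limma), where 0.848% of all genes did. For the difference between the co-culture changes of the lines, 0 of 35 members passed in limma (0.0602% of all genes did). An unadjusted p under 0.05 was found for 6 members and for 1260 of 19938 genes. The largest values after Ndrg1 were 1.28 ± 0.26 (SE, limma adjusted p = 0.284) for Pdk1 and -1.22 ± 0.33 (SE, limma adjusted p = 0.503) for Car12.

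The lines as labelled alone differed in 5 members (14.3%), against 2.89% of all genes, 2.7% higher and 0.186% lower in MBA-15. Among genes above the median level the shares were 16.1% of members and 5.35% of genes. Adm (4.00 ± 0.29, adjusted p = 0.00142), Egln3 (2.42 ± 0.17, adjusted p = 0.00131), Slc16a3 (2.25 ± 0.25, adjusted p = 0.00635) and P4ha1 (1.60 ± 0.14, adjusted p = 0.00256) were higher in MBA-15 labelled alone than in DA3 alone, and Car12 was lower (-1.31 ± 0.23, adjusted p = 0.0418, all limma). Within assay 3 and assay 4 the difference was 3.90 and 4.10 for Adm, 2.56 and 2.29 for Egln3, 2.16 and 2.35 for Slc16a3, 1.58 and 1.62 for P4ha1, and -0.97 and -1.65 for Car12. Slc16a3 missed the threshold without DA3 alone array 2 (2.06, adjusted p = 0.0732). Car12 missed it without array 1 of MBA-15 labelled alone (-0.98, adjusted p = 0.144), without either DA3 alone array (-1.30 and -1.32, adjusted p = 0.278 and 0.256), without either co-cultured DA3 array and with only the 4 arrays compared. Among the 7 members that were higher in the MBA-15 fraction of the co-culture, measured on other arrays, these 4 had the largest values.

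The spread between the 2 arrays of a group was also described by member. This description, with its split into 17 and 18 members, was chosen after the data were seen. The descriptions give an assay number, whose meaning is not stated in the sources used here, and co-cultured MBA-15, MBA-15 labelled alone and DA3 alone each have 1 array in assay 4 and 1 in assay 3. Of the 17 transporters, glycolytic enzymes and flux regulators, 8 were higher in assay 4 in all 3 groups (47.1%), against 16% of all genes, and 3 were lower in all 3 (17.6%, against 12.2%). The 8 were Slc2a1, Hk2, Pfkl, Aldoa, Pgam1, Eno2, Ldha and Slc16a3. Ldha differed by 0.46, 0.54 and 0.42 in the 3 groups and Pgam1 by 0.80, 0.41 and 0.58. Eno2 differed by 1.82, 0.94 and 0.18. Of the 18 other members 3 were higher in all 3 groups, among them P4ha2 (0.60, 0.57 and 0.69). Of the 20 further glycolysis and pyruvate genes 3 were higher (15%) and 4 lower (20%) in all 3 groups. Of 42 further targets of the factors 15 were higher (35.7%) and 6 lower (14.3%). Of 24 citric acid cycle and respiratory chain genes 6 were higher (25%) and 1 lower (4.17%), and of 14 regulators of the factors 0 were higher and 2 lower (14.3%). In co-cultured DA3, whose arrays are in assay 3 and assay 5, the median difference of the 17 members (assay 3 minus assay 5) was 0.04. In a limma fit of the assay number, chosen after the data were seen, 0 of 19938 genes passed, and 9 of 35 members and 1388 genes had an unadjusted p under 0.05.

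**Figure D4:**
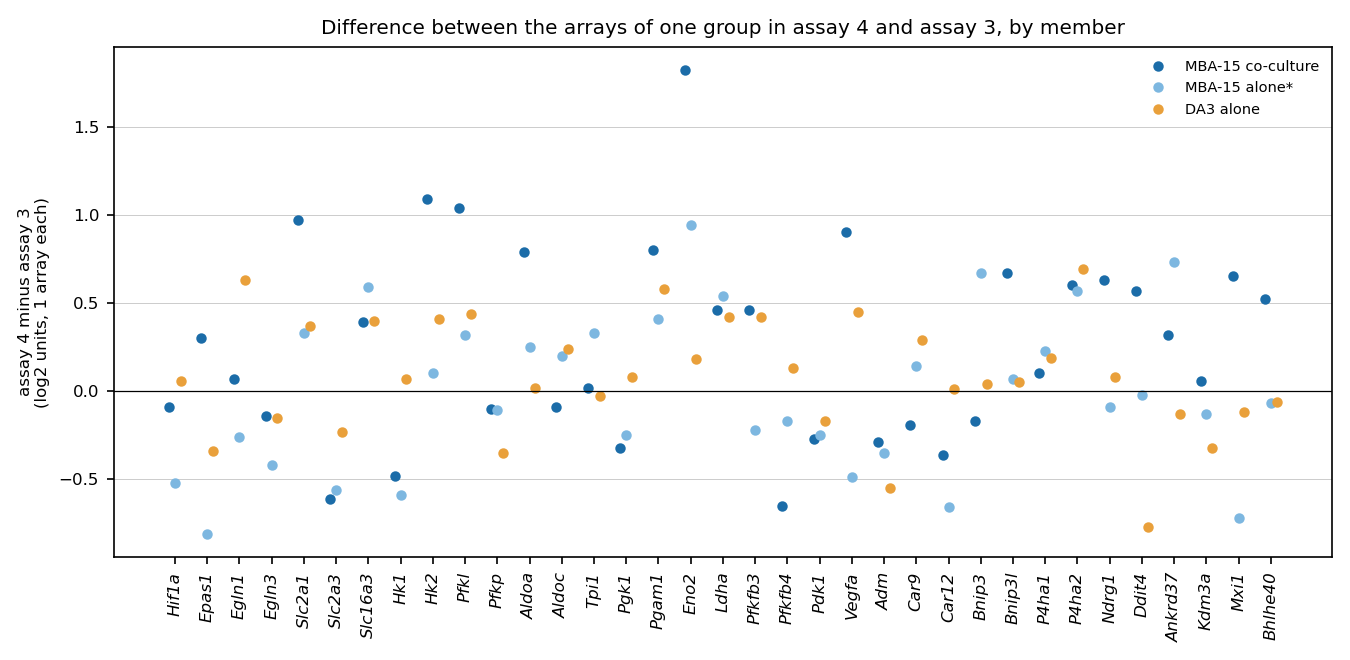
Each point is the level of a member on the assay 4 array minus that on the assay 3 array of the same group, in log2 units, for the 3 groups that hold both. The asterisk marks the label that Epcam went against. Slc2a1, Hk2, Pfkl, Pgam1, Eno2 and Ldha lie above 0 in all 3 groups, and Slc2a3, Adm and Egln3 below.

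Other genes of the pathway were read from 4 lists. Of 42 measured further targets of the factors, 13 were higher and 2 lower in the MBA-15 fraction than in the DA3 fraction (35.7%, against 12.8% of all genes). The higher ones with the largest values were Lox (2.84 ± 0.37, adjusted p = 0.00509), whose product cross-links collagen, Gbe1 (2.74 ± 0.37, adjusted p = 0.00568), the branching enzyme of glycogen, and Nt5e (2.57 ± 0.19, adjusted p = 0.000728), which makes adenosine outside the cell. The others were Rora, Stc2, Insig2, Hmox1, Angptl4, Pgm1, Ero1a, Fam162a, Flt1 and Kdm4c, from 0.76 to 1.64. The growth factor genes Pdgfb (-2.60 ± 0.42, adjusted p = 0.0102) and Tgfa (-2.13 ± 0.43, adjusted p = 0.0231) were lower. Hmox1, Angptl4, Fam162a, Kdm4c, Stc2 and Tgfa missed the threshold without either co-cultured MBA-15 array, and each also missed it without at least 1 of the DA3 arrays.

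Among 20 further genes of glycolysis and pyruvate, Pdk4 (2.68 ± 0.39, adjusted p = 0.00741), another brake on pyruvate entry, and Pdha1 (0.67 ± 0.16, adjusted p = 0.0447), a subunit of the pyruvate dehydrogenase that these kinases act on, were higher in the MBA-15 fraction, and Gpd2 (-1.23 ± 0.16, adjusted p = 0.00479) of the glycerol phosphate shuttle was lower. Pdha1 missed the threshold in 12 of 16 other settings. The 3 that passed were 15% of these 20 genes, against 12.8% of all genes. Between the fractions 5496 of 19938 genes had an unadjusted p under 0.05 (limma). Of 14 regulators of the factors 0 passed (limma, 2 at an unadjusted p under 0.05), with values of -1.18 ± 0.33 (SE, limma adjusted p = 0.0682) for Hif1an, 1.07 ± 0.46 (SE, limma adjusted p = 0.194) for Rbx1 and 0.83 ± 0.22 (SE, limma adjusted p = 0.0599) for Mtor. Of 24 genes of the citric acid cycle and respiratory chain 0 passed (4 at an unadjusted p under 0.05), with 0.94 ± 0.33 (SE, limma adjusted p = 0.127) for Sdha, 0.85 ± 0.25 (SE, limma adjusted p = 0.0759) for Sdhc and 0.70 ± 0.28 (SE, limma adjusted p = 0.166) for Tfam.

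Endothelin, a vessel-constricting peptide with actions on bone, is encoded by Edn1. It was the only gene of these lists to pass the threshold in both co-culture comparisons, and was lower with co-culture in each. Its level was 3.91 and 4.19 in co-cultured DA3 against 6.88 and 6.35 in DA3 alone, and 4.68 and 4.96 in co-cultured MBA-15 against 6.34 and 6.19 in MBA-15 labelled alone. The DA3 difference was -2.56 ± 0.22 (SE, limma adjusted p = 0.0426) and the MBA-15 difference -1.45 ± 0.22 (SE, limma adjusted p = 0.0432). In both comparisons the call was lost when any 1 of the 8 arrays was left out. It was also lost with assay number as a block (adjusted p = 0.11 in DA3 and 0.0757 in MBA-15), with the replicate block (0.0585 and 0.0914) and with only the arrays compared (0.171 and 0.0842). On the linear scale used for Car12, Edn1 stood at 74.1% and 62.7% in MBA-15 labelled alone. Pdgfb also had lower means with co-culture and passed in neither comparison. Its means were 3.68 in co-cultured MBA-15 against 6.3 in MBA-15 labelled alone, and 6.28 in co-cultured DA3 against 7.65 in DA3 alone. As labelled alone, 8 further targets were higher in MBA-15 than in DA3 (19%, against 2.89% of all genes), with Lox at 3.80 ± 0.37 (SE, limma adjusted p = 0.00389) and Nt5e at 2.40 ± 0.19 (SE, limma adjusted p = 0.00184), and Pdk4 (2.54 ± 0.39, adjusted p = 0.0241) was the 1 of 20 further glycolysis and pyruvate genes to pass there. Of these 8 targets Nt5e passed in every setting tried, and the other 7 (Lox, Gbe1, Rora, Insig2, Stc2, Hmox1 and Cxcl12) missed the threshold without DA3 alone array 1, as did Pdk4.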

How the data were processed

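RNA from 8 samples was hybridised to Affymetrix MoGene ST arrays. The authors deposited log2 expression values per probe set, for which the submitters' processing notes name RMA and Partek 6.5, with further settings not given in the sources used here. Of 35556 probe sets, 21789 carry 1 gene symbol in the platform annotation, 1621 several and 12146 are not listed, and the probe set with the highest mean stood for each of 19938 genes. Differences between the 4 group means were fitted by lmFit and eBayes of limma 3.58.1 (R 4.3.3; 4 residual and 2.6 prior degrees of freedom) over all genes, two-sided, with Benjamini-Hochberg adjustment and a threshold of 0.05. The number of arrays limits the precision. The code was tested on simulated data. Named with values on every array were a set list of 26 members, any member that passed in a comparison and up to 5 members with the largest difference in each, and, of the other lists, genes that passed and up to 3 of the largest differences. Members and gene lists were chosen with earlier results of these data known, so their counts are descriptions. Replicate numbers were not taken to pair samples. Alternatives were the mean of probe sets, only genes above the median level, quantile normalization, array medians subtracted, assay and replicate blocks, only the arrays compared, leaving out each array, and, chosen after seeing the data, a fit without the arrays labelled MBA-15 alone and a fit of the assay number. Promoters are from RefSeq (GRCm38.p6).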

Additional observations from a re-analysis of the deposited data

How the results depend on the processing

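None of the 31 results on named members changed sign under the alternatives run. Between the co-culture fractions 10 members passed, 8 with the assay block, and 9 to 10 when single arrays were left out. As labelled alone 5 passed, and 3 to 6 without single arrays. In MBA-15 the 1 member became 0 with only the arrays compared, and 0 to 1 without single arrays. With only genes above the median level 1 member (Ndrg1) passed in DA3 and 1 in the difference between the lines' changes, where 0 had passed.

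Counts over all genes moved more. MBA-15 co-culture against the arrays labelled alone gave 169, 265 with genes above the median level, 28 with only the arrays compared, and 13 to 198 without single arrays. DA3 gave 8, 74 with genes above the median level, 0 with the assay block, 0 with only the arrays compared, 2 without the arrays labelled MBA-15 alone, and 0 to 3 without single arrays. The co-culture fractions gave 2545, 1123 with only the arrays compared, and 1642 to 2229 without single arrays. The lines as labelled alone gave 576, and 136 to 627 without single arrays. The difference between the lines' changes gave 12, 49 with genes above the median level, 29 after quantile normalization, 0 with the assay block, and 0 to 8 without single arrays. The cause of these shifts was not tested, except that leaving out arrays or genes also changes the number fitted.

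With the replicate block, 10 members passed between the co-culture fractions, 142 genes in MBA-15, 3 in DA3 and 0 in the difference between the lines' changes. Replicate 1 minus replicate 2 correlated between -0.41 and 0.31 across genes for the 6 pairs of groups, so the numbers were not taken as pairs.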
